A study of Mus musculus with 2 samples.

Results

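CpG methylation was examined at 8 genes of the methionine and one-carbon cycle, Mat1a, Mat2a, Gnmt, Pemt, Ahcy, Bhmt, Cbs and Shmt1, in the liver of fasted and untreated mice. A cytosine belonged to a gene when it lay inside the gene's RefSeq span or within 5 kb on either side (mm10) and was covered by at least 5 reads in both libraries. The 8 loci held 742 such CpG cytosines, of 2466496 on the 19 autosomes. The fasted group was 1 library from 12-week-old CD-1 mice without food for 12 hr, and the control group was 1 library from untreated CD-1 mice of the same age with free access to chow and water. CD-1 is an outbred stock, and the labels name no transgene or other treatment, nor the number of mice behind each library. Frozen liver was assayed by reduced representation bisulfite sequencing. The method covers cytosines near the cut sites of the enzymes MspI and TaqαI and scores a cytosine as methylated where bisulfite did not convert it. With 1 library per group there is no spread between animals, every test on reads compares these 2 libraries, and fasting cannot be told apart from any other difference between them.

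The methionine cycle makes S-adenosylmethionine, the methyl donor of DNA methyltransferases and most other methyltransferases, and the liver is its main site. Methionine adenosyltransferases (Mat1a in adult hepatocytes, Mat2a in most other cells) make the donor, and methyltransferases such as Gnmt and Pemt use it. Ahcy splits the product S-adenosylhomocysteine into adenosine and homocysteine, which Bhmt returns to methionine with betaine or Cbs commits to cysteine synthesis. Shmt1 feeds the folate branch with one-carbon units from serine.

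The 300 bases around the annotated start, 250 before and 50 after it, are shown for 4 genes, Gnmt and Bhmt because the report turns on their starts, and Mat2a and Ahcy as the least methylated starts. They come from the RefSeq promoter table of GRCm38.p6, read 5′ to 3′ on the gene's strand, the minus strand in all 4. Capitals mark CpGs with a cytosine measured in both libraries.
Gnmt: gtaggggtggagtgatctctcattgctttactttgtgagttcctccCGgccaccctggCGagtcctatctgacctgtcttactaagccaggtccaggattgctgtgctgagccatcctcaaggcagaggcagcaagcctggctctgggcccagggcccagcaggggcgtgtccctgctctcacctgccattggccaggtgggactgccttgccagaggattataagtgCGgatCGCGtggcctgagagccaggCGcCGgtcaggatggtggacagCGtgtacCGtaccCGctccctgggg
Bhmt: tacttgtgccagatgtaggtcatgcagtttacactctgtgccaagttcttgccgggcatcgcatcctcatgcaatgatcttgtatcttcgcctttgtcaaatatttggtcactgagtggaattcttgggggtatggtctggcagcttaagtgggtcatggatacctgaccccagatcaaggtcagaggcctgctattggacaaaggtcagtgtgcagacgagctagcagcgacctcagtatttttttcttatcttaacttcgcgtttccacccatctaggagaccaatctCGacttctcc
Mat2a: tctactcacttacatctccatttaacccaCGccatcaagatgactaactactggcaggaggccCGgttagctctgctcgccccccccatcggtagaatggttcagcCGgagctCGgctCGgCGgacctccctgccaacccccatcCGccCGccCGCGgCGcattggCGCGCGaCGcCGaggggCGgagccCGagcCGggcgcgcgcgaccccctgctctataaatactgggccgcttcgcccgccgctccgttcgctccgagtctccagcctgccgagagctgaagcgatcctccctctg
Ahcy: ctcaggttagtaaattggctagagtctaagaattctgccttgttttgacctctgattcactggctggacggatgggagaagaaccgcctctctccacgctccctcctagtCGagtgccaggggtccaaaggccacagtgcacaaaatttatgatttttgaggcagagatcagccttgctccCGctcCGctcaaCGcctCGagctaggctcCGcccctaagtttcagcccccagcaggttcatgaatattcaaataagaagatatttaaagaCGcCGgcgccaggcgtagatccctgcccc
The Gnmt sequence covers chr17:46729116-46729415, the Bhmt sequence chr13:93637709-93638008, the Mat2a sequence chr6:72439507-72439806 and the Ahcy sequence chr2:155074448-155074747. Mat2a held 34 CpGs, of which 19 were measured, and Ahcy held 13, of which 8 were measured. Gnmt held 11 CpGs, of which 10 were measured. Bhmt held 8 CpGs, of which 1 was measured. The median over 32817 RefSeq promoters was 7 CpGs. The letters CCGG, the MspI site, occurred 2 times in the Gnmt sequence, 1 time in Bhmt, 3 times in Mat2a and 1 time in Ahcy, and 52.8% of all promoters of this length held it. The letters TCGA, the TaqαI site, occurred 1 time in Bhmt, 2 times in Ahcy and 0 times in the other two, and 22.0% of all promoters held it. Both sites read the same on either strand and cannot overlap each other. The promoter table matched 7 of the 8 genes and has no entry for Mat1a.

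Methylation was low at the measured starts and varied widely in gene bodies. The start window ran from 1000 bp before to 500 bp after the annotated start, the body was the rest of the annotated span, and a region's level is the mean over its cytosines. In bodies 116 of 283 cytosines lay above 50% in the fasted library and 122 in the control library, in start windows 0 and 1 of 347. Start windows of Ahcy, Mat2a, Shmt1 and Cbs averaged below 3% in both libraries, and that of Gnmt 8.09% in the fasted and 8.51% in the control library. The lower-coordinate end of Mat1a, used because its strand was not given in the tables here, averaged 14.2% in both. The Bhmt start was the exception, with 5.51% in the fasted library and 30.7% in the control library. In a mixed tissue such as liver, a change of level within cells and a change in the share of cell types cannot be told apart.

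**Figure D1:**
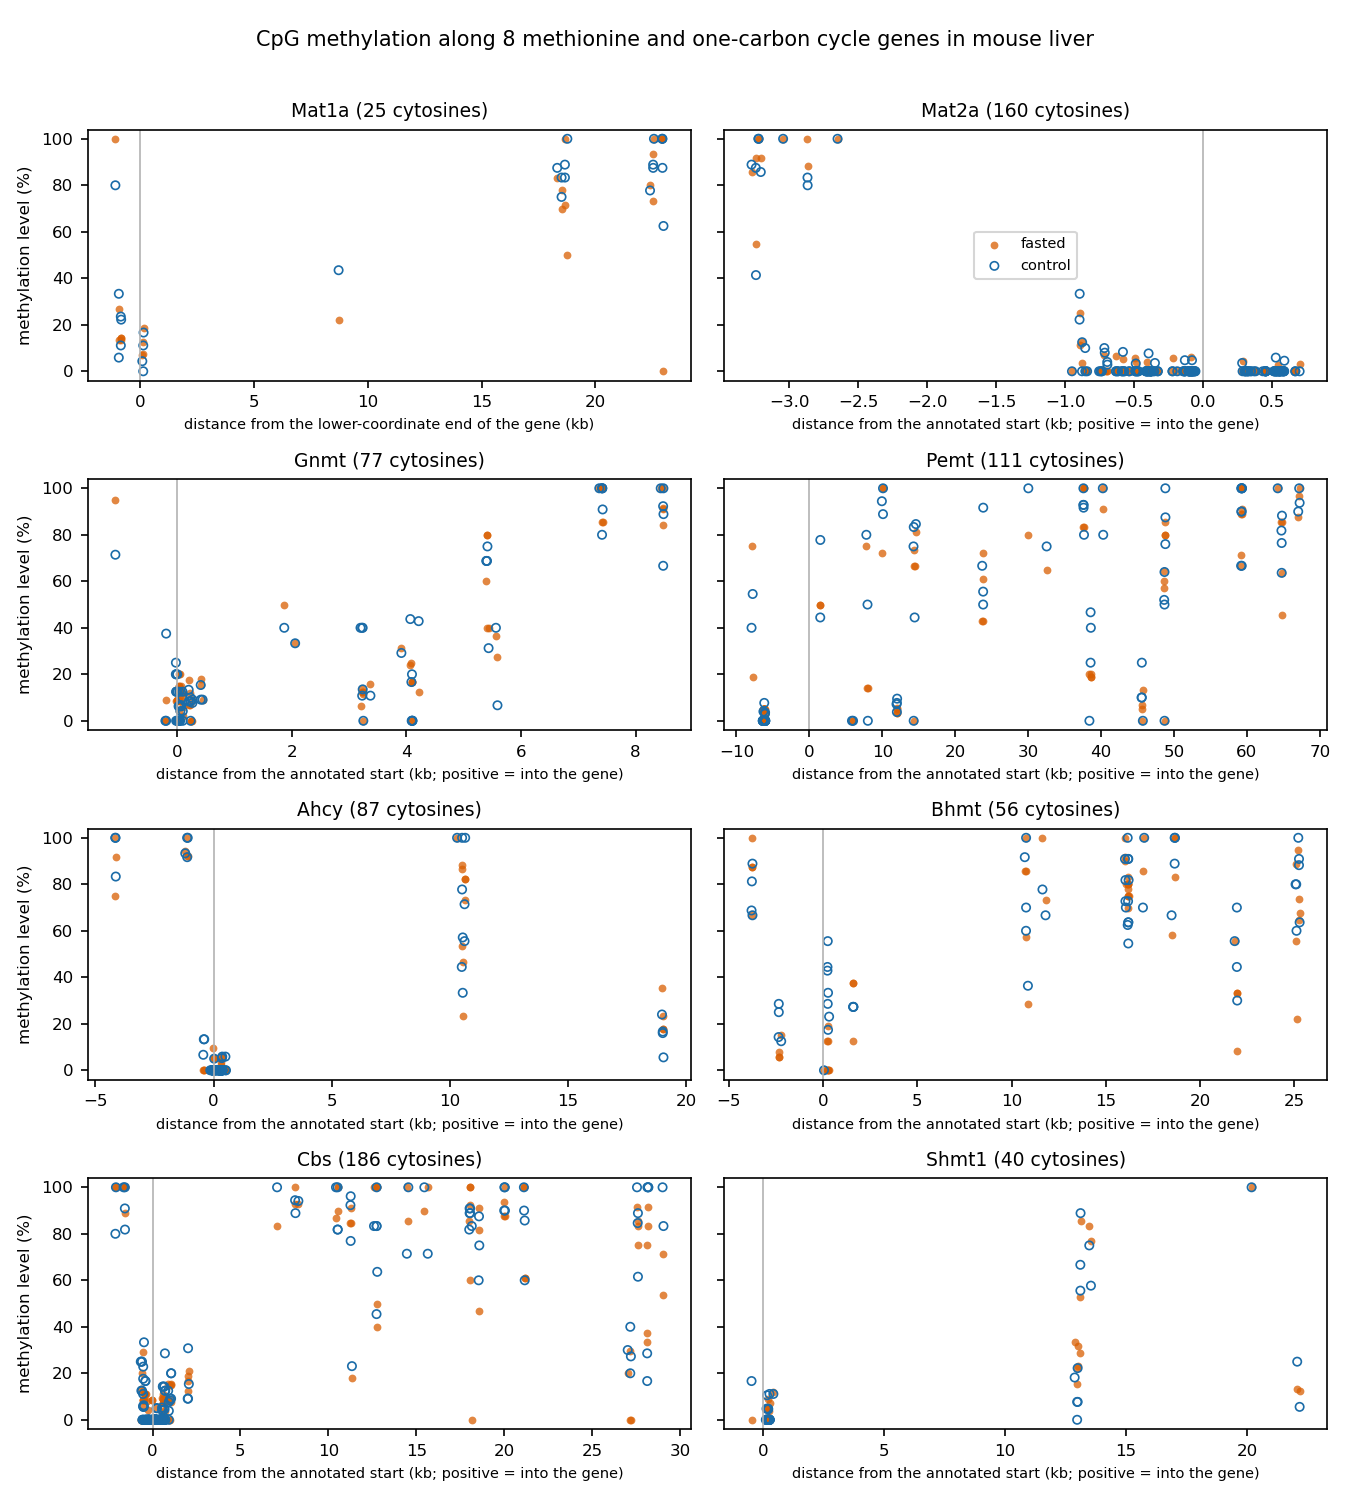
Methylation level of each CpG cytosine (%) against its distance from the annotated start (kb, positive into the gene; for Mat1a from the lower-coordinate end) in the fasted library (filled orange) and the control library (open blue), 1 library each. Levels near the start lie close to 0 in Mat2a, Ahcy, Cbs and Shmt1 and the low stretch of Pemt lies about 6 kb before its start. Body levels span the whole scale, with 116 of 283 body cytosines above 50% in the fasted and 122 in the control library.

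A cytosine was called where its reads differed under Fisher's exact test (two-sided), adjusted after Benjamini-Hochberg over all autosomal cytosines, and its level by at least 25 percentage points. Of the 742 cytosines 0 were called, where 0.0548% of all autosomal cytosines were. The lowest adjusted p in the 8 loci was 1, and 7 cytosines had an unadjusted p below 0.05, or 0.943% of the 742 against 1.85% of all autosomal cytosines. Coverage of the 742 was a median of 16 reads in each library, and that of all autosomal cytosines 15 in the fasted and 14 in the control library. Of the 742 cytosines 199 were higher in the fasted library, 196 were lower and 347 were equal. Their mean difference was -1.16 points, against 0.14 points over all autosomal cytosines.

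Differences of at least 25 points were seen at 39 of the 742 cytosines, 5.26%, against 7.41% of all autosomal cytosines. Of these 39, 5 were higher and 34 lower in the fasted library, whereas over the autosomes 48.5% of such cytosines were lower. In 31 of the 39 at least one library had fewer than 10 reads. The 39 cytosines lay in 34 sets of neighbours that shared a strand and the same read totals, and none of them passed the adjusted test. Cbs held 12 of them, Gnmt 8, Bhmt and Pemt 7 each, Mat1a and Ahcy 2 each, Shmt1 1 and Mat2a 0.

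Among the methyl donor synthases, Mat2a was nearly unmethylated over its whole measured CpG-dense stretch. Mat2a (chromosome 6, 72432796 to 72439556, minus strand) encodes the catalytic subunit of the synthase found in most tissues. Its start window averaged 0.862% in the fasted library and 1.18% in the control library over 118 cytosines, a difference of -0.32 points (95% interval -2.04 to 1.41). From summed reads the start stood at 0.781% of 2177 reads in the fasted library (exact Clopper-Pearson interval 0.456 to 1.25) and at 0.954% of 2724 reads in the control library (0.624 to 1.40). At 96 of the 118 cytosines no methylated read was found in either library. The body held 32 cytosines, all within 702 bp of the start, at 0.175% in the fasted and 0.326% in the control library.

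The low stretch of Mat2a gave way to high levels upstream, and a gap without data left its edge loosely placed. From 894 bp before to 702 bp after the start, 148 neighbouring cytosines averaged 0.556% in the fasted library and 0.859% in the control library. The cytosine with the widest gap at this locus was the outermost of these upstream, 894 bp before the start (position 72440450). It had 3 of 27 reads methylated in the fasted library and 8 of 24 in the control library. The cytosine nearest the start, 54 bp before it, had 0 of 13 and 0 of 21 methylated reads in the fasted and the control library. Beyond a gap without data, the 10 cytosines from 2651 to 3275 bp before the start averaged 91.2% in the fasted library and 86.7% in the control library. The lncRNA gene Particl, transcribed on the opposite strand, covers 150 of the 160 measured cytosines, so these values belong to both annotations.

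Mat1a, which encodes the synthase of adult hepatocytes, was sparsely covered, with 25 cytosines in its locus (chromosome 14, 41105012 to 41124428). Its lower-coordinate end held 9 cytosines, at 14.2% in both libraries (difference -0.06 points, -10.2 to 10.1). Individual cytosines there ranged from 7.14 to 26.7% in the fasted library and from 0 to 33.3% in the control library. The cytosine nearest that end (position 41105116) had 1 of 14 methylated reads in the fasted and 1 of 23 in the control library. The other end held 0 measured cytosines. The body held 7 cytosines, at 67.8% in the fasted library and 80.2% in the control library, with 1 higher and 6 lower. That difference of -12.4 points (-27.8 to 3.03) did not pass the test on summed reads (adjusted p = 0.916, Fisher's exact test), and the summed reads stood closer together, at 68.7% of 67 reads in the fasted and 72.1% of 68 reads in the control library. The widest gap of the locus was at 1 cytosine past the far end (position 41128001), with 0 of 5 methylated reads in the fasted library and 5 of 8 in the control library.

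Among the enzymes that use S-adenosylmethionine, Gnmt, the abundant glycine N-methyltransferase of hepatocytes, had a low but not empty start (chromosome 17, 46725664 to 46729211, minus strand). Its start window averaged 8.09% in the fasted library and 8.51% in the control library over 40 cytosines, a difference of -0.42 points (-4.52 to 3.67). Summed reads gave the opposite order, 9.11% of 955 reads in the fasted library (7.36 to 11.1) and 6.36% of 817 reads in the control library (4.79 to 8.26), a difference of 2.75 points. The test on those reads was not passed (p = 0.0335, adjusted p = 0.204, Fisher's exact test). With the start higher in the fasted library, Fisher's exact test was passed at minimums of 10 reads (3.84 points, adjusted p = 0.0217) and 20 reads (5.21 points, adjusted p = 0.0150), both short of the required 10 points. Over all alternatives the adjusted p of this exact test ran from 0.0150 to 1. Of the 40 cytosines 20 were higher, 13 lower and 7 equal.

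The direction at the Gnmt start depended on which cytosines were taken. The 10 cytosines from 25 to 59 bp inside the gene, whose first 3 CpGs are the last capitals of the Gnmt sequence shown above, averaged 13.0% in the fasted library and 4.21% in the control library. Both strands showed it, with 16.9% in the fasted and 7.58% in the control library on the plus strand and 9.17% in the fasted and 0.833% in the control library on the minus strand. On the minus strand 19 of 216 reads were methylated in the fasted library and 1 of 215 in the control library. The 10 cytosines from 22 bp before to 7 bp after the start averaged 3.48% in the fasted library and 12.3% in the control library, on 127 and 84 reads in all. The cytosine nearest the start, 3 bp inside, had 0 of 12 methylated reads in the fasted and 1 of 5 in the control library. Both stretches were chosen after their values were seen, so no test is given.

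Further along, the level of Gnmt was higher. Its body held 9 cytosines, at 17.3% in the fasted and 25.4% in the control library (difference -8.11 points, -19.6 to 3.36, adjusted p = 0.994, Fisher's exact test). The widest gap of the locus was in the body (position 46725964), with 1 of 16 methylated reads in the fasted library and 2 of 5 in the control library. That cytosine belonged to 3 minus-strand neighbours that had 5 of 48 methylated reads in the fasted and 6 of 15 in the control library, while 4 plus-strand cytosines of the same stretch averaged 10.2% in the fasted and 8.78% in the control library. The 27 cytosines past the far end, all inside the neighbouring gene Pex6, averaged 57.2% in the fasted and 56.7% in the control library. One cytosine 1077 bp before the start had 19 of 20 methylated reads in the fasted library and 15 of 21 in the control library, so the low stretch ended within that distance.

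Pemt, which makes phosphatidylcholine by methylating phosphatidylethanolamine, had no measured cytosine in the windows of its 2 annotated starts (chromosome 11, span 59970614 to 60046561, minus strand). The cytosine nearest the outermost start, 1490 bp inside it, had 3 of 6 methylated reads in the fasted and 4 of 9 in the control library. The outer end of the annotated span, 6373 bp before the first of these starts, held 46 cytosines. They averaged 1.28% in the fasted library and 0.398% in the control library, a difference of 0.89 points (-1.08 to 2.85). From summed reads these were 0.875% of 1372 reads (0.453 to 1.52) in the fasted and 0.416% of 1202 reads (0.135 to 0.968) in the control library. This end was looked at after the table was seen and was not in the tested family.

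The Pemt body alternated between low and high groups of cytosines. Over 106 cytosines, most of those at the outer end among them, it averaged 35.5% in the fasted library and 37.2% in the control library, a difference of -1.71 points (-4.36 to 0.94). Its summed reads differed past the adjusted threshold, at 20.6% of 2169 reads in the fasted and 24.3% of 1989 reads in the control library (adjusted p = 0.0467, Fisher's exact test), but the difference was under the required 10 points. Low groups inside the gene lay about 12 kb from the start, at 4.38% in the fasted and 7.03% in the control library, and about 45.6 kb from it, at 6.25% in the fasted and 11.3% in the control library. The widest gap was at position 59975373, with 5 of 11 methylated reads in the fasted and 15 of 17 in the control library. The 2 plus-strand cytosines there averaged 54.5% in the fasted and 82.4% in the control library, and the 2 minus-strand cytosines 85.7% in the fasted and 72.7% in the control library, so the strands went opposite ways.

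Ahcy, the only mammalian enzyme known to break down S-adenosylhomocysteine, had the least methylated start of the 6 measured (chromosome 2, 155059310 to 155074497, minus strand). Its start window averaged 0.579% in the fasted library and 0.773% in the control library over 64 cytosines (difference -0.19 points, -1.97 to 1.58). In all, 9 of 1418 reads were methylated in the fasted library and 8 of 1555 in the control library. At 52 of the 64 cytosines neither library had a methylated read, among them the cytosine nearest the start, 21 bp inside, with 18 reads in the fasted and 19 in the control library. The low stretch ran from 435 bp before to 526 bp after the start, and the next cytosine measured upstream, 1095 bp before it, had 12 of 13 methylated reads in the fasted and 12 of 12 in the control library. The lncRNA genes Gm45609, upstream on the opposite strand, and Gm39966, inside Ahcy, cover 21 and 23 of its measured cytosines.

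The body of Ahcy held 12 cytosines, at 53.0% in the fasted and 53.8% in the control library. The widest gap was at position 155063948 in the body, with 4 of 17 methylated reads in the fasted and 4 of 7 in the control library. The 8 cytosines from 10507 to 10652 bp inside the gene averaged 67.1% in the fasted and 67.5% in the control library, lower in the fasted library by 13.0 points on the plus strand and higher by 12.2 on the minus strand. Over the whole Ahcy locus the mean difference was -0.14 points, while the summed reads stood at 12.2% in the fasted and 8.21% in the control library (adjusted p = 0.00116, Fisher's exact test). Summed reads weigh each library by its own coverage. The body held 189 of 1813 reads in the fasted library and 124 of 1887 in the control library. Within the body the summed reads stood at 48.7% in the fasted and 40.3% in the control library. The cause of the difference over the locus was not tested.

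Bhmt (chromosome 13, 93616891 to 93637758, minus strand) regenerates methionine from homocysteine with betaine. Its start stood at 5.51% in the fasted library, against 30.7% in the control library. The difference of -25.1 points (-38.6 to -11.7) passed the test on summed reads, 6 of 84 methylated in the fasted library and 24 of 84 in the control library (adjusted p = 0.0131, Fisher's exact test). From those reads the start stood at 7.14% in the fasted library (2.67 to 14.9) and 28.6% in the control library (19.2 to 39.5). It was the 1 call among the 6 members with a measured start, where 1.11% of 13286 start windows were called and 0.602% were called lower. No more than 0.211% of all start windows differed by as much in either direction.

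The reads behind the Bhmt call were few. The window held 8 cytosines of 5 CpGs, with 6 lower, 1 equal and 1 higher in the fasted library. On the plus strand, the cytosines 226, 241 and 256 bp inside the gene had 0 of 6 methylated reads each in the fasted library and 4, 5 and 3 of 9 in the control library. The plus-strand cytosine 313 bp inside had 0 of 21 in the fasted and 3 of 13 in the control library. On the minus strand, the cytosines 225 and 240 bp inside had 1 of 8 each in the fasted library and 3 and 2 of 7 in the control library. The minus-strand cytosine 255 bp inside had 4 of 21 in the fasted and 4 of 23 in the control library. The cytosine nearest the start, 40 bp inside and the 1 capital CpG of the Bhmt sequence shown above, had 0 of 8 in the fasted and 0 of 7 in the control library.

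By equal read totals, the 8 Bhmt cytosines formed 4 sets. Cytosines of a set may share their reads, and the summed test then counts a read several times. Dividing the summed reads by 8, the number of cytosines, gave an adjusted p of 1, and halving every read count gave 0.383 (Fisher's exact test). Of all start windows 0.00753% were called with divided reads and 0.294% with halved counts. The adjusted p of Fisher's exact test over all alternatives that gave a value ran from 0.0120 to 1. At a minimum of 10 reads 2 cytosines were left, with 4 of 42 methylated reads in the fasted and 7 of 36 in the control library, too few to be tested. The largest single gap was at position 93637517, 241 bp inside (0 of 6 in the fasted, 5 of 9 in the control library, unadjusted p = 0.0440, adjusted p = 1, Fisher's exact test).

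**Figure D2:**
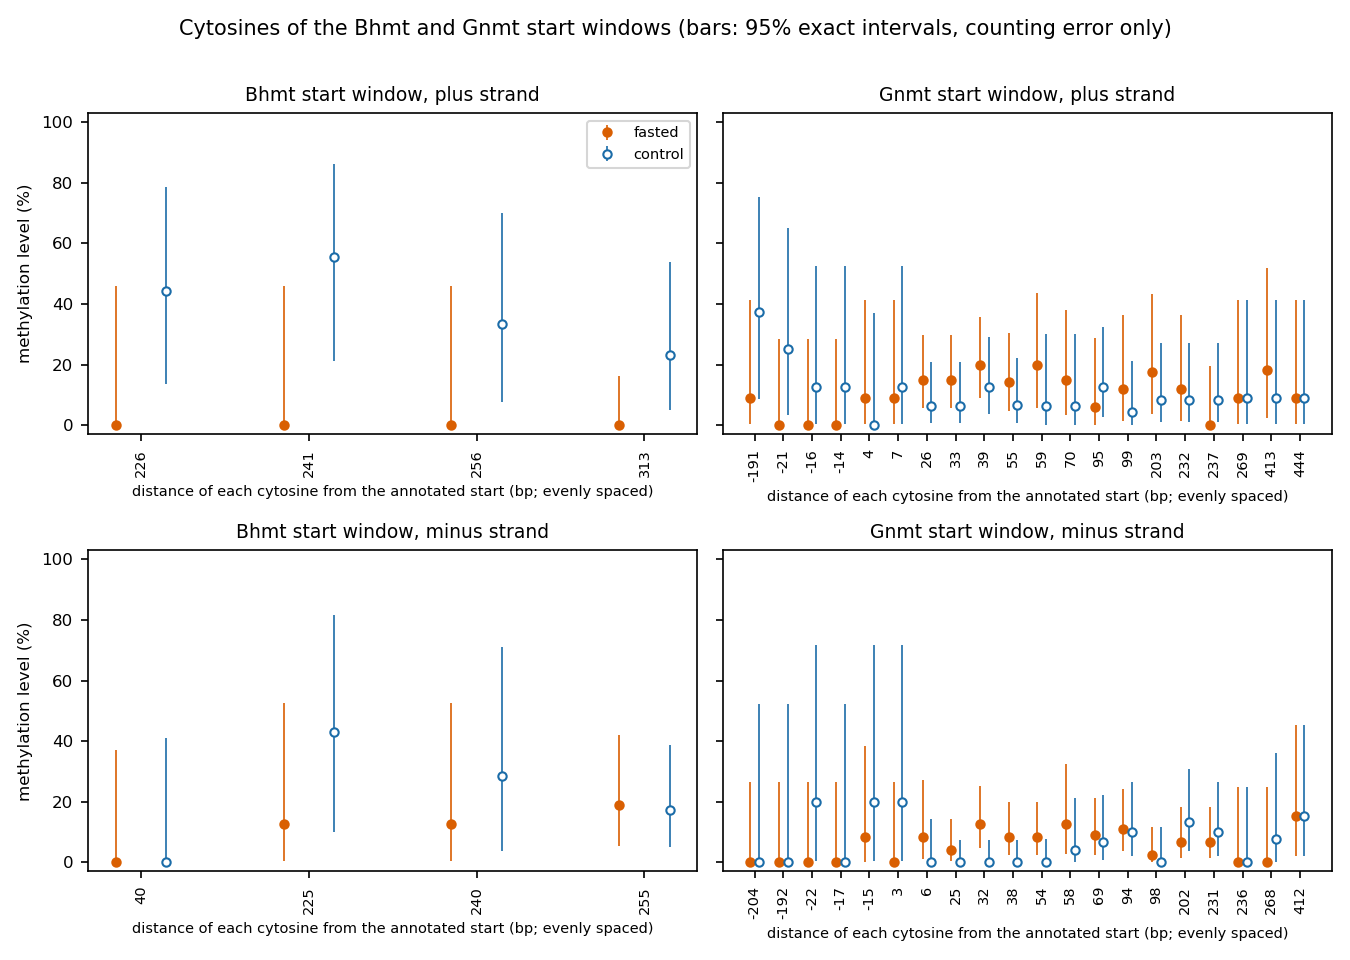
Methylation level (%) of each cytosine in the start windows of Bhmt and Gnmt by strand, in the fasted library (filled orange, left of each pair) and the control library (open blue), with 95% exact intervals for counting error; cytosines are ordered by distance from the start (bp) and evenly spaced. In Bhmt all 4 plus-strand cytosines stand at 0% in the fasted library and between 23.1% and 55.6% in the control library, with wide intervals.

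Elsewhere in Bhmt the libraries stood closer. The body averaged 76.0% in the fasted and 72.6% in the control library over 29 cytosines (difference 3.35 points, -3.72 to 10.4, adjusted p = 0.520, Fisher's exact test). Its densest block, 13 cytosines from 16020 to 16214 bp inside, averaged 81.4% in the fasted and 76.6% in the control library. The 3 cytosines from 1591 to 1603 bp inside averaged 29.2% in the fasted and 27.3% in the control library. Low values reached beyond the start on its upstream side, where 4 cytosines from 2231 to 2369 bp before it averaged 8.55% in the fasted and 20.1% in the control library. The 11 cytosines past the far end averaged 54.4% in the fasted library and 69.3% in the control library (95% interval of the difference -26.7 to -3.27 points), with 2 higher, 8 lower and 1 equal. Flanks were not a tested family, and over the whole Bhmt locus the levels were 57.5% in the fasted and 62.5% in the control library (adjusted p = 0.0945, Fisher's exact test).

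Cbs, which joins homocysteine to serine in the first step of transsulfuration, had the most measured cytosines of the 8 loci, 186 (chromosome 17, 31612623 to 31637233, minus strand). Its start window averaged 2.14% in the fasted and 2.79% in the control library over 90 cytosines (difference -0.65 points, -2.76 to 1.46, adjusted p = 1, Fisher's exact test). At 65 of the 90 cytosines neither library had a methylated read, and the cytosine nearest the start, 6 bp before it, had 0 of 18 in the fasted and 0 of 12 in the control library. Inside the gene the low stretch ended gradually. The 32 cytosines from 508 to 1062 bp inside averaged 5.61% in the fasted and 6.54% in the control library, and the 4 from 2000 to 2065 bp inside 17.2% in the fasted and 16.1% in the control library. Upstream, 6 cytosines between the window and 5 kb averaged 98.1% in the fasted and 92.1% in the control library.

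The body of Cbs averaged 46.5% in the fasted and 47.6% in the control library over 75 cytosines (difference -1.09 points, -4.54 to 2.35). The largest gap of all 742 cytosines was in this body (position 31619055, plus strand), with 0 of 6 methylated reads in the fasted and 5 of 6 in the control library (unadjusted p = 0.0152, adjusted p = 1, Fisher's exact test). With its 2 nearest plus-strand neighbours it averaged 53.3% in the fasted and 87.0% in the control library, while the 3 minus-strand cytosines of the same stretch averaged 92.7% in the fasted and 87.9% in the control library. The 15 cytosines past the far end averaged 55.4% in the fasted and 65.4% in the control library.

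Shmt1, the cytosolic serine hydroxymethyltransferase, had a low start over 27 cytosines (chromosome 11, 60788897 to 60811265, minus strand). The start averaged 1.72% in the fasted and 2.35% in the control library (difference -0.63 points, -3.76 to 2.50), with 10 of 568 methylated reads in the fasted and 10 of 518 in the control library. The nearest measured cytosine, 125 bp inside, had 0 of 20 and 0 of 21 in the fasted and the control library, and none of the 17 CpGs of its RefSeq promoter sequence was measured. Between 436 and 12874 bp inside, no cytosine was measured. The 10 cytosines from 12874 to 13546 bp inside averaged 45.3% in the fasted and 40.0% in the control library, and the body as a whole 44.5% in the fasted and 40.8% in the control library over 13 cytosines (difference 3.73 points, -6.01 to 13.5). The widest gap was at position 60798155 in the body, with 2 of 7 methylated reads in the fasted and 5 of 9 in the control library.

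**Figure D3:**
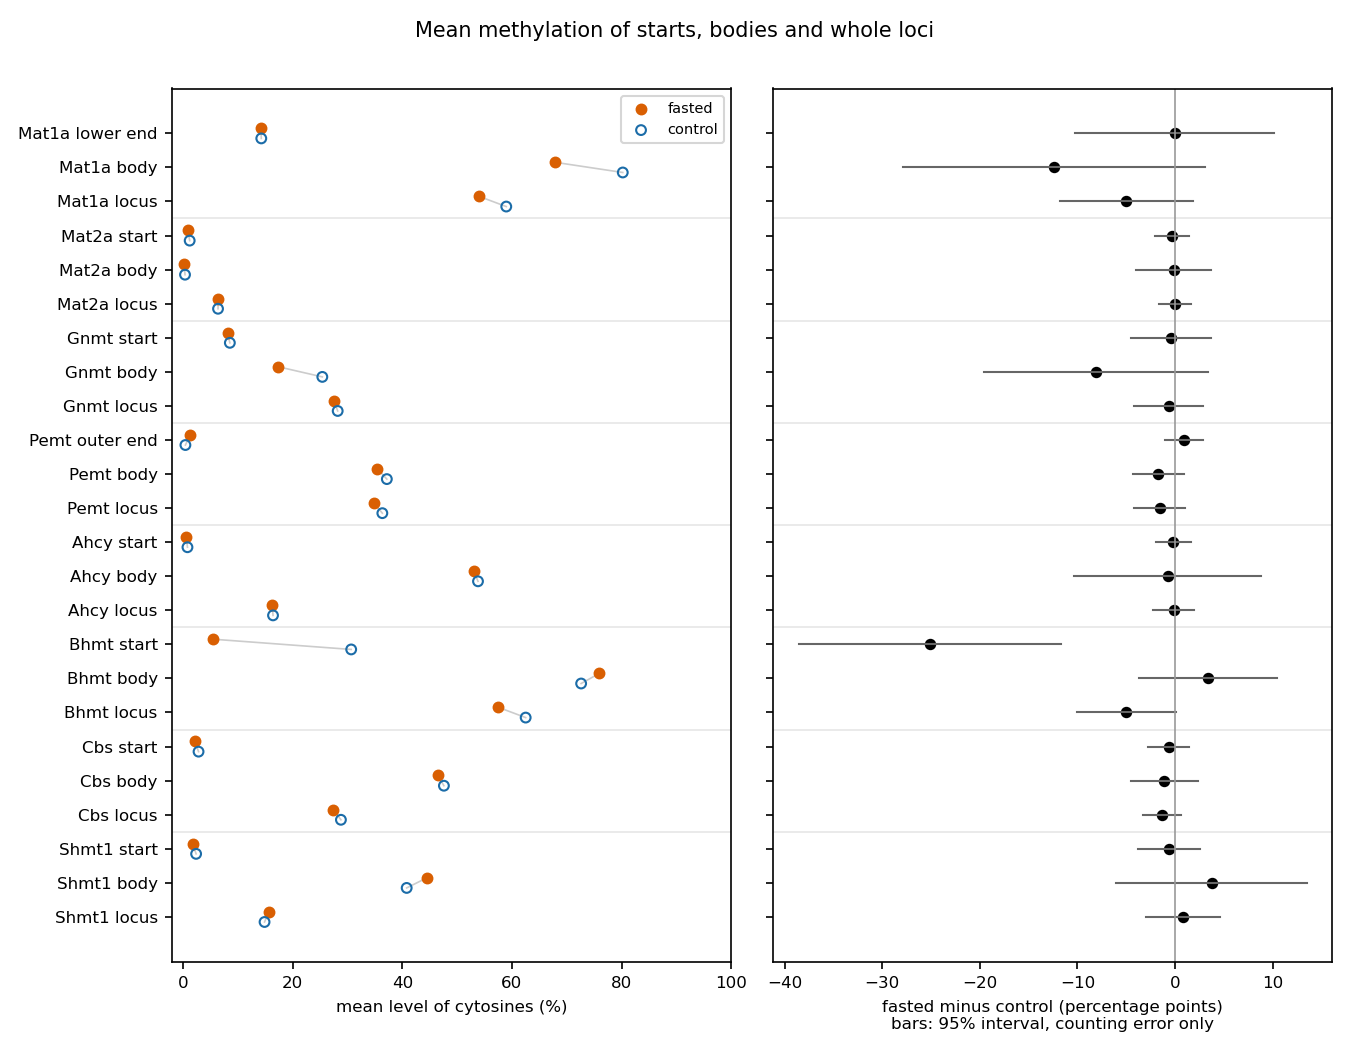
Mean level of the cytosines (%, left; fasted filled orange above control open blue) and fasted minus control difference (percentage points, right; bars are 95% intervals for counting error) for the start, body and whole locus of each gene, with the lower end for Mat1a and the outer end for Pemt. The Bhmt start, at -25.1 points, is the one row whose interval does not include 0.

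Among the 6 members with a measured start, the same 4 were lowest in both libraries. In the fasted library the start levels ran from Ahcy at 0.579% through Mat2a, Shmt1 and Cbs at 2.14% to Bhmt at 5.51% and Gnmt at 8.09%. In the control library the same 4 genes were lowest and in the same order, followed by Gnmt at 8.51% and Bhmt at 30.7%. Exact intervals from summed reads overlapped between neighbours among the lowest 4. They did not overlap between Cbs, with upper bounds of 3.44% in the fasted and 3.66% in the control library, and Gnmt, with lower bounds of 7.36% in the fasted and 4.79% in the control library. In the fasted library the interval of Bhmt, 2.67 to 14.9%, overlapped those of both. In the control library that of Bhmt, 19.2 to 39.5%, lay above that of Gnmt. Where cytosines share reads, these intervals are too narrow. Over 13286 genes the median start was at 1.36% in the fasted and 1.30% in the control library.

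In bodies 0 of 8 members were called, where 1.59% of 22660 genes were, and over whole loci 0 of 8, where 1.35% of 35151 genes were. A region was called where the adjusted p was under 0.05 and the levels lay 10 points or more apart. Whole-locus levels were lowest at Mat2a, at 6.37% in the fasted and 6.35% in the control library, and highest at Bhmt. Gnmt stood at 27.5% in the fasted and 28.2% in the control library, Mat1a at 54.0% in the fasted and 59.0% in the control library, and Cbs at 27.4% in the fasted and 28.8% in the control library. Pemt stood at 34.7% in the fasted and 36.3% in the control library, and Shmt1 at 15.6% in the fasted and 14.8% in the control library. Without the size requirement, the summed-read test was passed by 1 start (Bhmt), 1 body (Pemt) and 2 loci (Pemt and Ahcy). The share of all genes passing on that rule was not taken. The shares above include the 10 points and are no background to these counts. Which regions passed depended on coverage. At a minimum of 10 reads the Gnmt start (adjusted p = 0.0217, Fisher's exact test) and Gnmt locus (0.000563) passed, while the Pemt body (0.231), the Pemt locus (0.156) and the Ahcy locus (0.213) did not. The 6 measured starts were all lower in the fasted library by the mean of cytosines, with a median of -0.53 points against 0.01 for all genes, but 5 of the 6 differences were under 1 point and their intervals included 0. The direction at Gnmt, Mat2a, Cbs, Ahcy and Shmt1 turned under at least one other setting. Within 5 points of 0 lay 5 of the 6 starts, and 91.1% of the starts of all genes.

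**Figure D4:**
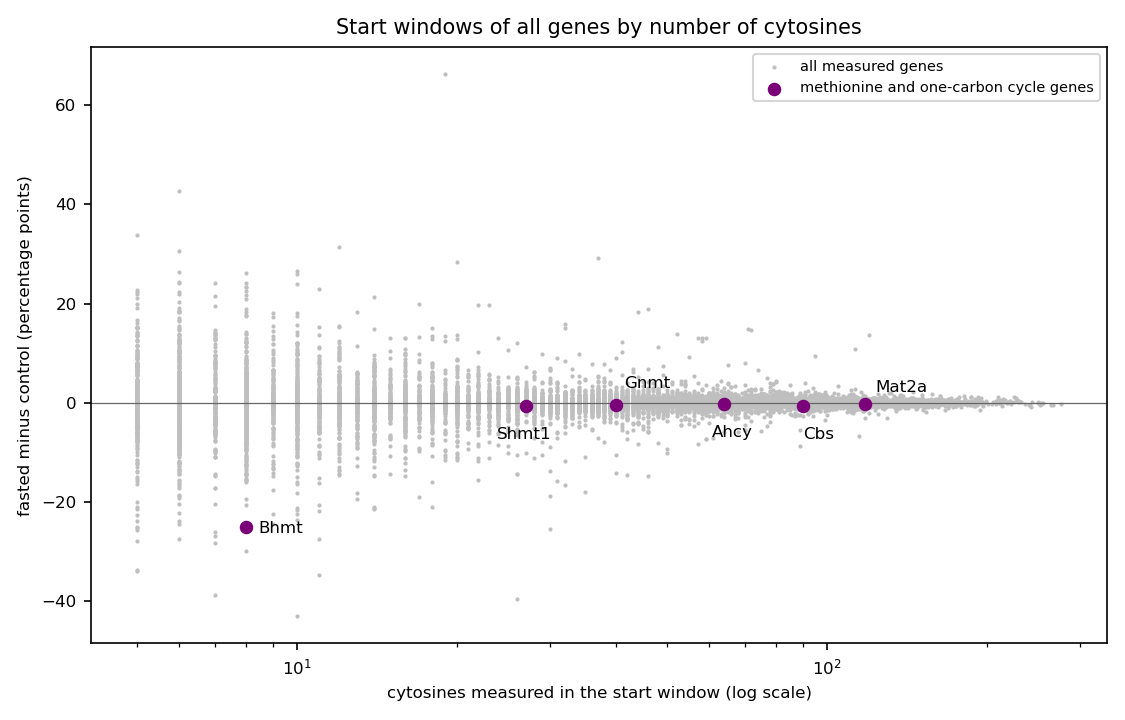
Fasted minus control difference of the start window (percentage points) against the number of cytosines measured in it (log scale) for 13286 genes (grey) and 6 members (purple), 1 library per group. The spread widens as cytosines become fewer, and Bhmt, with 8 cytosines, lies at -25.1 points while the members with 27 or more lie within 1 point of 0.

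Small windows such as that of Bhmt differed more often. Of 1856 start windows with 5 to 10 cytosines, 20 differed by at least 25 points and 3.34% were called, against 0.246% of the 8532 windows with more than 30 cytosines. The other 5 measured members had 27 to 118 cytosines in the window.

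The 2 strands of a CpG are covered by separate reads, which gives a comparison within each library. At 257 CpGs of the 8 loci both strands were measured. Their levels differed by a mean of 4.28 points within the fasted library and 5.68 points within the control library, against 4.84 points between the libraries on the same strand. The libraries differed by about as much as the strands of a CpG within a library. The difference had the same sign on both strands at 43 CpGs and opposite signs at 41. In Bhmt the same sign was seen at 7 CpGs and the opposite at 4, and its libraries differed by 17.6 points, against 9.06 between strands within the fasted and 17.2 within the control library.

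The other genes of the pathway had no called start or body. They held 1 called cytosine, among the 105 of the Mat2b locus, where 0.0548% of all autosomal cytosines were called. The list held 58 genes of the methionine cycle and methyl transfer, choline and glycine breakdown, transsulfuration and glutathione, folate, serine, and methionine salvage with polyamines. Of 38 measured starts 0 were called, where 1.11% of 13286 starts of all genes were. Their median difference was 0.25 points, with 26 higher against 12 lower. Dmgdh and Bhmt2 share 1 window and were counted once each, and over the 37 distinct windows the median was 0.21 points with 25 higher and 12 lower. Ethe1, a mitochondrial sulfur dioxygenase, had the widest gap of a start, at 15.7% in the fasted and 22.4% in the control library (adjusted p = 0.296, Fisher's exact test). Gatm, which begins creatine synthesis, followed at 51.3% in the fasted and 48.0% in the control library (adjusted p = 0.0891, Fisher's exact test). The starts of Gcsh, a protein of the glycine cleavage system, and Psph, the last enzyme of serine synthesis, passed the summed-read test at differences under 3 points. Gcsh stood at 3.37% in the fasted and 0.763% in the control library, and Psph at 0% of 966 reads in the fasted, which allows a level of up to 0.311%, and 0.994% in the control library.

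Of 53 measured bodies 0 were called, where 1.59% of 22660 bodies of all genes were. Their median difference was -0.50 points, with 25 higher against 28 lower. At such a share, 0 calls in 53 bodies or in the shorter lists below are no result about these genes. Without the size requirement, 6 of the 53 bodies and 9 of the 56 measured loci passed the summed-read test. The share of all genes passing on that rule was not taken, so these counts cannot be read as an excess. With a required 5 points, 3.22% of all bodies and 2.82% of all loci were called. Mpst, a sulfurtransferase of cysteine breakdown, had the widest gap of a body, at 11.8% in the fasted and 26.8% in the control library over 41 cytosines (adjusted p = 0.0579, Fisher's exact test). Cth, which completes transsulfuration after Cbs, stood at 74.0% in the fasted and 84.5% in the control library over 13 cytosines (adjusted p = 0.617, Fisher's exact test). Folate genes had 0 calls in 11 starts and 17 bodies, and the methionine cycle and methyl transfer genes had 0 in 9 starts and 10 bodies. The choline and glycine genes had 0 in 5 starts and 8 bodies, transsulfuration and glutathione 0 in 5 starts and 9 bodies, serine 0 in 3 starts and 3 bodies, and salvage with polyamines 0 in 5 starts and 6 bodies.

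Starts of marker genes of liver cell types were looked at, but few were measured. Their levels give no check of the labelled tissue. Of 12 hepatocyte markers 3 had a measured start (Apob, Hnf4a and Fgb), at 10.3 to 29.4% in the fasted and 19.6 to 33.0% in the control library. Of 8 immune markers 1 was measured, Cd37, at 48.5% in the fasted and 52.5% in the control library. Of 4 bile duct markers 2 were measured, at 12.5 to 32.0% in the fasted and 12.7 to 37.8% in the control library. Of 8 endothelial and stellate markers 4 were measured, at 1.35 to 68.4% in the fasted and 1.53 to 37.1% in the control library, and the top of both ranges was Eng, an endothelial receptor. Whether cell composition has a part in the values of the 8 genes was not tested.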

How the data were processed

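Liver DNA methylation was measured by reduced representation bisulfite sequencing in 1 fasted and 1 control library, grouped by their titles. Per the submitters' processing notes, the authors used bcl2fastq 1.8.4, Bismark 0.14.3 and mm10, with other settings not given in the sources used here. The deposited files list for each CpG cytosine the methylated and total read counts and a score, 1000 times the methylated fraction, which matched the counts within 0.5. The counts were used without normalization. Summed over cytosines they came to 51276705 reads in the fasted and 49253627 in the control library.

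The 742 cytosines and all others on the autosomes were tested with Fisher's exact test (Python 3.11.15, scipy 1.17.1) at 5 reads or more in each library, with Benjamini-Hochberg adjustment. Starts, bodies and loci with at least 5 cytosines were tested on summed reads over all genes. Spans and starts came from RefSeq tables of GRCm38.p6, the same build as mm10, which give a strand for 25748 of 47042 autosomal genes. Genes without one entered no start comparison, and of several starts the outermost was used. Intervals are at 95% and cover counting error only, since PCR copies cannot be recognised. Neighbouring cytosines share reads, so p-values on summed reads are too small. The tests were checked on simulated data, with large changes planted at deeply covered cytosines and in start windows with more cytosines than that of Bhmt. Each cytosine was drawn independently there, so the check does not cover shared reads or windows as small as that of Bhmt.

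Members, lists and tests were chosen with earlier results of these data known. The text names all 8 members, in each the cytosine with the widest gap and that nearest the start, and the 2 other listed genes with the widest gap in starts and in bodies. Mat2b, Gcsh, Psph, Gss, Psat1 and the short stretches of cytosines were picked after their values were seen. The alternatives were other coverage limits, strands added, halved counts, equal weight for each read, reads divided by cytosines, other windows, no flank and other thresholds.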

Additional observations from a re-analysis of the deposited data

How the results depend on the processing

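The count of 0 called cytosines in the 8 loci, of 0 called member bodies and of 0 called member loci held under every alternative run on them. With each region's reads divided by its cytosines, 0 of 22660 bodies and 0 of 35151 loci of all genes were called. That alternative therefore could not test the members. With read counts halved, 0.437% of all bodies and 0.449% of all loci were called. The 1 called member start, Bhmt, became 0 called starts at coverage minimums of 10 and 20 reads, where Bhmt had too few cytosines to be tested. The 2 cytosines left at 10 reads differed by -10.7 points, and the 1 left at 20 reads by 1.66 points, the opposite direction. The call was also lost with read counts halved and with each window's reads divided by its cytosines. Most calls were lost there over all genes too. Of 13286 start windows 147 were called in the main setting, 39 with halved counts and 1 with divided reads. These 2 losses therefore say little about Bhmt itself. At other windows the Bhmt start differed by -17.8 points (2000 bp on each side) and -25.1 points (500 bp), both called. Among the other pathway genes 0 starts were called under every alternative run, and 1 body was called at a minimum of 10 reads (Gss, -11.6 points) and 1 at a required difference of 5 points (Psat1, 5.97 points). All differences below are fasted minus control in points, were not called, and reversed the direction given above; the cause was not tested.

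At a minimum of 10 reads these were the starts of Gnmt (3.84) and Cbs (0.0205), the bodies of Gnmt (3.15), Mat2a (0.0524) and Cbs (1.38), and the loci of Gnmt (4.21), Mat1a (4.83), Mat2a (-0.16), Ahcy (0.10) and Cbs (0.32). At 20 reads they were the starts of Gnmt (5.21), Ahcy (0.90) and Shmt1 (0.78), the bodies of Mat2a (0.0524) and Cbs (1.89), and the loci of Gnmt (4.92), Mat2a (-0.33), Ahcy (1.26) and Cbs (0.59). With strands added together they were the Mat2a start (0.12) and the Gnmt locus (0.16). With halved counts they were the starts of Gnmt (1.96) and Shmt1 (0.26), the Ahcy body (0.94) and the loci of Gnmt (1.23), Mat2a (-0.0809) and Ahcy (0.44). With equal weight for each read they were the starts of Gnmt (2.75) and Ahcy (0.12), the Ahcy body (8.35) and the loci of Gnmt (1.12), Mat1a (8.67) and Ahcy (4.03). The Gnmt start differed by 0.40 with windows of 2000 bp, the Mat2a start by 0.0297 and the Cbs start by 0.0594 with 500 bp, and without flanks the loci of Mat2a and Ahcy by -0.0765 and 0.0365. Directions also turned at 2 ends that had no test. The lower end of Mat1a, at -0.06 above, differed by 1.82 at a minimum of 10 reads, 4.40 at 20 reads, 0.60 with strands added, 3.57 with equal read weight, and 1.95 and 3.42 with windows of 2000 and 500 bp. The outer end of Pemt, at 0.89 above, differed by -0.13 at 20 reads and by -0.08 with halved counts.

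Depth limits these values. Among member cytosines with at least 30 reads, the total was even at 62.5% in the fasted and 78.4% in the control library, against 45.6% in both libraries at 10 to 19 reads, and whether both mates of a pair were counted was not tested. No paired analysis was possible because each group has 1 library.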
